A study of Arabidopsis thaliana with 2 samples.

Results

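The jasmonate synthesis enzymes described here are encoded by 10 Arabidopsis thaliana genes, the 13-lipoxygenases LOX2, LOX3, LOX4 and LOX6, the allene oxide synthase AOS, the allene oxide cyclases AOC1 to AOC4 and the reductase OPR3. They were taken by locus identifier from an RNA sequencing table of 33565 rows, and all 10 were found. They were chosen by pathway role with their FPKM in these libraries, and the low wn1 values of LOX2 and AOS among them, already known. Their differences are therefore given as descriptions and not as evidence. The study compared wn1, a whitening mutant in the Col-0 background, with wild-type Col-0. The mutated gene is not named in the labels. Shoot tissue, labelled as shoot and cotyledon, came from 7-day-old seedlings raised on solid MS medium at 22 °C with a 16 h day and an 8 h night. Each genotype was represented by 1 library, so no difference has a replicate check and no p-value can be given.

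Jasmonates are fatty acid hormones of wounding, defence and fertility, and their synthesis is split between organelles. In the plastid a 13-lipoxygenase adds oxygen to linolenic acid, allene oxide synthase converts the hydroperoxide to an unstable epoxide, and allene oxide cyclase closes its ring to give the precursor OPDA. The precursor moves to the peroxisome, where OPR3 reduces it and rounds of beta-oxidation shorten its side chain to jasmonic acid. Transcripts of many of these enzymes are themselves induced by jasmonate in leaves.

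Levels are FPKM, a fragment count divided by transcript length and by the mapped total, as deposited. Differences are log2 values of FPKM + 1, wn1 minus wild type, which understate the change of low genes. A gene is counted as 2-fold or 4-fold lower or higher on this scale, while fold ratios given for single genes are plain FPKM ratios and can be larger. Depth was read from the steps between low values, which gave about 12300000 fragments for wild type and 15300000 for wn1. Intervals are exact 95% intervals made from the estimated fragment numbers and cover counting error only. In bulk tissue, fewer cells of a type and less RNA per cell cannot be told apart.

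Several plastid-step genes, LOX2, AOS, AOC1 and AOC2 above all, had much lower transcript levels in wn1. The plastid-step genes LOX6, AOC3 and AOC4 lay within 2-fold. OPR3, the peroxisomal member, had nearly the same level in both libraries. Of the 10 genes, 9 had a mean of at least 1 FPKM, and 5 of these were at least 2-fold lower in wn1, namely LOX2, LOX3, AOS, AOC1 and AOC2. Among all 18788 genes with that mean, 3.65% were at least 2-fold lower and 3.67% were higher by as much. None of the 9 was at least 2-fold higher. At 4-fold the count of lower members was 4, where 0.681% of all genes lay. Nothing is read from these shares, since the genes were chosen with the same comparison known. All 9 lay below 0, as did 47.1% of all genes. The 8 plastid-step genes with a value had a median log2 difference of -1.79, against 0.03 over all genes, and OPR3 stood at -0.12. The median moved to -1.13 when no filter was applied and LOX4 came in.

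**Figure D1:**
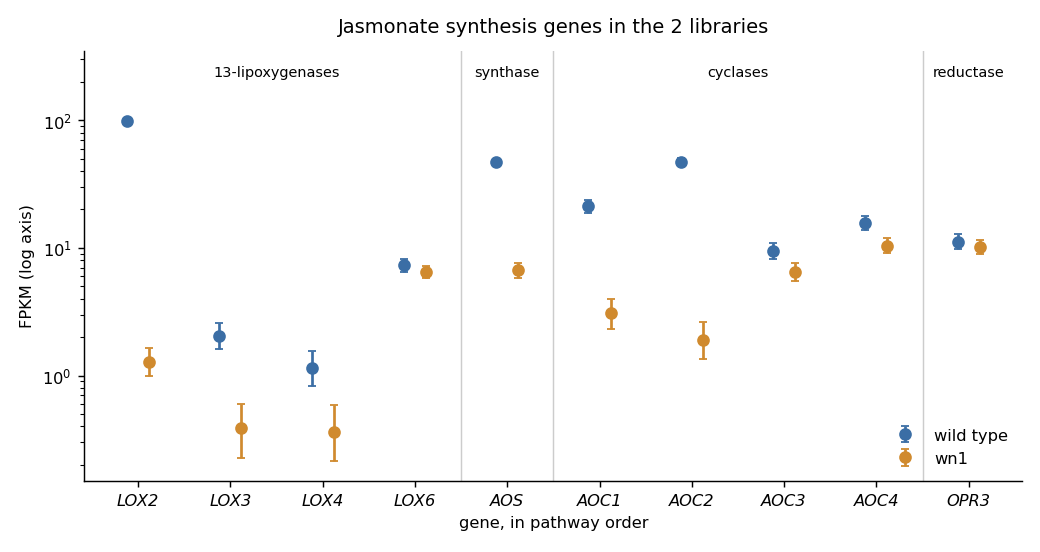
FPKM of the 10 genes in pathway order on a log axis, with 1 point per library and bars for the exact 95% counting interval, blue for wild type and orange for wn1. LOX2 stands highest in wild type at 98.3 FPKM and at 1.29 in wn1, while the points for LOX6 and OPR3 nearly coincide.

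The 13-lipoxygenases open the pathway. LOX2 (AT3G45140, chromosome 3), the lipoxygenase known for the rapid jasmonate burst of wounded leaves, had 98.3 FPKM in the wild-type library and 1.29 in wn1. These levels correspond to about 3853 and 63 fragments. The wild-type level was 76.3-fold higher, with a counting interval of 58.3 to 97.5, and the log2 difference was -5.44. Only 2 of the 18788 genes had a smaller log2 difference. LOX3 (AT1G17420), which acts with LOX4 in male fertility, had 2.05 FPKM in the wild-type library and 0.391 in wn1. That is 5.23-fold lower in wn1, with an interval of 3.14 to 9.40 from about 78 and 18 fragments. LOX4 (AT1G72520) had 1.15 and 0.360 FPKM, a 3.20-fold ratio with an interval of 1.73 to 5.78. Its mean of 0.757 FPKM lay under the minimum of 1, and its log2 difference of -0.66 would not have counted as 2-fold either.

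LOX6 (AT1G67560), a lipoxygenase known for fast jasmonate formation near the xylem after wounding, differed from its relatives in these libraries. It had 7.31 FPKM in the wild-type library and 6.44 in wn1, and the interval of the ratio, 0.950 to 1.31, includes equal levels. The order of the family therefore changed. LOX2 held 90.3% of the summed 13-lipoxygenase FPKM in the wild-type library and 15.2% in wn1, while LOX6 held 6.72% and 76.0%. The sum itself went from 109 to 8.48 FPKM, and LOX2 made up 96.7% of that drop. In both libraries LOX3 stood above LOX4, though their counting intervals overlapped in wn1. Coding sequences of LOX2 and the other 3 were 61.1% to 63.6% identical, with no shared run over 17 bases. LOX3 and LOX4 were 80.7% identical with a longest shared run of 24 bases.

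**Figure D2:**
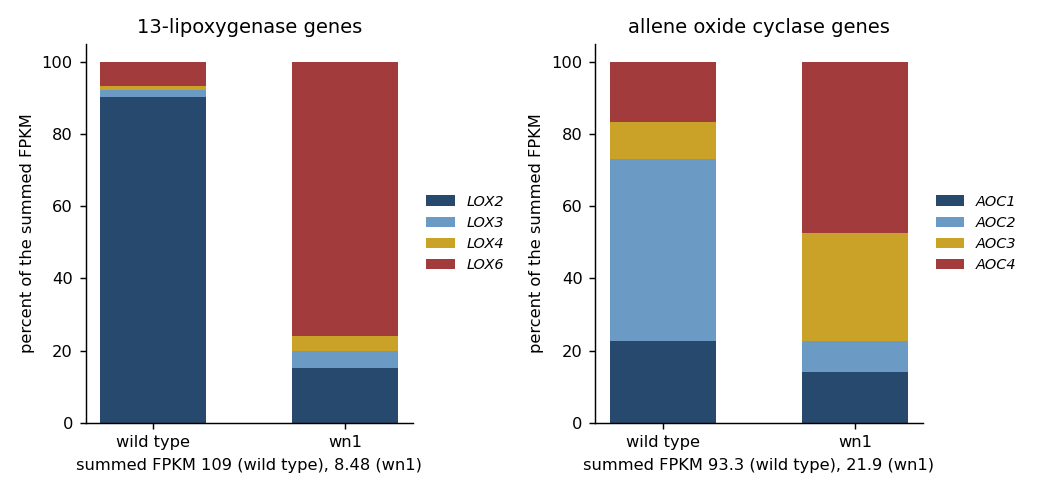
Share of each gene in the summed FPKM of its family, as stacked bars for wild type and wn1, with the sums written under each panel. LOX2 fills 90.3% of the lipoxygenase bar in wild type and LOX6 76.0% in wn1, and among the cyclases AOC2 leads in wild type with 50.4% and AOC4 in wn1 with 47.5%.

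Allene oxide synthase is a plastid cytochrome P450 enzyme that commits the hydroperoxide to jasmonate. AOS (AT5G42650, chromosome 5), the 1 gene listed for this step, had 47.0 FPKM in the wild-type library and 6.70 in wn1, from about 1176 and 208 fragments. The wild-type level was 7.02-fold higher, with an interval of 5.96 to 8.05, and the log2 difference of -2.64 was the 59th lowest of all genes. Within wild type LOX2 had 2.09 times the FPKM of AOS, and within wn1 AOS had 5.20 times that of LOX2. The pair thus changed places between the libraries.

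Allene oxide cyclases set the stereochemistry of the precursor. AOC2 (AT3G25770) had 47.1 FPKM in the wild-type library and 1.89 in wn1, a 24.8-fold ratio with an interval of 17.5 to 34.5 from about 753 and 38 fragments. Its log2 difference of -4.05 ranked 14th from the bottom. AOC1 (AT3G25760) had 21.2 and 3.08 FPKM, a 6.87-fold ratio with an interval of 5.08 to 9.16. AOC3 (AT3G25780) had 9.49 FPKM in the wild-type library and 6.51 in wn1, a 1.46-fold ratio with an interval of 1.16 to 1.78. AOC4 (AT1G13280, chromosome 1) had 15.6 and 10.4 FPKM, a 1.50-fold ratio with an interval of 1.22 to 1.78. Both AOC3 and AOC4 were lower in wn1 beyond counting error but within 2-fold, at log2 differences of -0.48 and -0.54. The order in wild type was AOC2, AOC1, AOC4 and AOC3, and in wn1 it was AOC4, AOC3, AOC1 and AOC2. Neighbours in the wild-type order had separate counting intervals. In wn1 AOC4 stood clear of AOC3, and AOC3 of AOC1, while the intervals of AOC1 and AOC2 overlapped. The summed level of the 4 cyclases went from 93.3 to 21.9 FPKM, 4.27-fold lower in wn1.

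AOC1, AOC2 and AOC3 lie next to each other on chromosome 3, all on the plus strand, with 1330 bases between the first pair and 1088 between the second. In the RefSeq annotation of build TAIR10.1 the cluster runs from chr3:9403779 to 9411090. The deposited table carries no coordinates and names build TAIR10 for its alignment. Of the 6 protein-coding genes flanking the cluster, 3 on each side, AT3G25750 was listed at 0 in both libraries. The other 5 had log2 differences between -0.14 and 0.26. Differences of 2-fold or more in this stretch were thus seen at AOC1 and AOC2 and not at AOC3 or the flanking genes. Among all 18788 measured genes only 3.65% were lower and 3.67% higher by as much. Nothing is therefore read from the flanking genes.

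**Figure D3:**
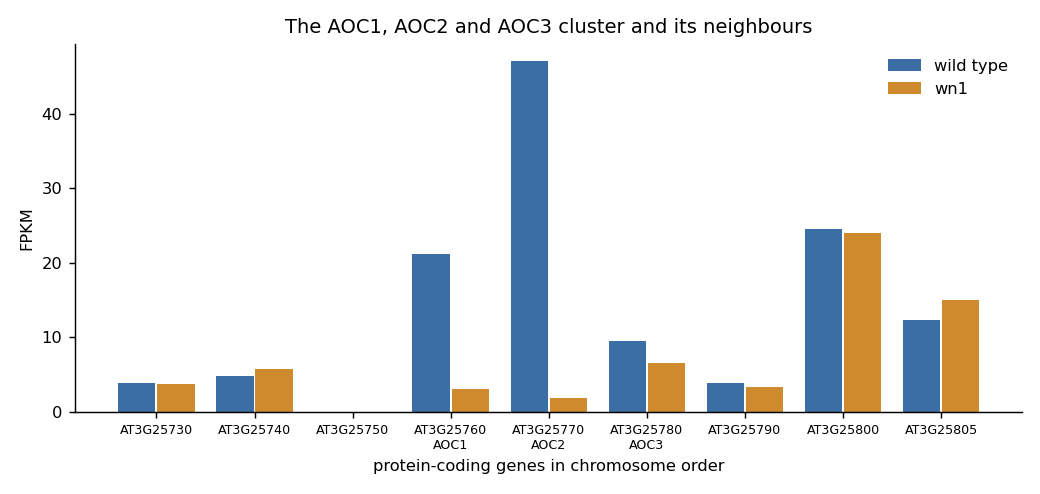
FPKM in wild type (blue) and wn1 (orange) of AOC1, AOC2, AOC3 and the 3 protein-coding genes on either side, in chromosome order and not to distance. AOC2 has the tallest wild-type bar, at 47.1 FPKM against 1.89 in wn1, while the bars of each flanking gene are of similar height.

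Because the cyclases are close relatives, the division of reads among them bears on these values. Coding sequences of AOC1 and AOC2 were 90.3% identical, AOC1 and AOC3 82.7%, AOC2 and AOC3 82.4%, and AOC4 was 72.8% to 80.0% identical to the others. The longest run shared by any pair was 73 bases, between AOC1 and AOC3. A window of 80 coding bases around it is shown for the 4 genes, from the RefSeq transcripts of TAIR10.1, with capitals for bases that differ from AOC1 in an ungapped comparison.
AOC1: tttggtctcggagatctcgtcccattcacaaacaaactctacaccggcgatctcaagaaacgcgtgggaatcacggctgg
AOC2: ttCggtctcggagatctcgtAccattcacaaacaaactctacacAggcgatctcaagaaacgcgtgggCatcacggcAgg
AOC3: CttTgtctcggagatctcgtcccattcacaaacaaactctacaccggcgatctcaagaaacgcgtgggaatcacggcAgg
AOC4: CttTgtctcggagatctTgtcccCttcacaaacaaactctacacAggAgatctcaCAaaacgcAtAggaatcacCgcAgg
AOC2 differs from AOC1 at 5 of the 80 bases, AOC3 at 3 and AOC4 at 12. A read that falls inside a shared run cannot be assigned by sequence. Not given in the sources used here were the read length and the authors' handling of such reads, so the split among AOC1, AOC2 and AOC3 is uncertain. How far the summed level depends on that handling was not tested.

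The sequence just upstream of the transcript start was compared for the 10 genes, as 250 bases of TAIR10.1 each. The windows were searched on both strands for the G-box CACGTG, a hexamer bound by basic helix-loop-helix factors such as MYC2. They were also searched for a related hexamer, AACGTG, which is called the T/G-box and reads CACGTT on the opposite strand. Neither hexamer overlapped the other in any window shown. A G-box was found in AOS and a T/G-box in AOC1 and LOX4, and 7 of the 10 windows held neither. LOX2 and AOC2 were among these 7, so neither hexamer was common to the 4 genes with the largest differences. Over 27443 nuclear protein-coding genes, 6.49% of such windows held a G-box, 7.54% a T/G-box and 13.3% either. The windows of the 4 genes with the largest differences are given 5′ to 3′ on the gene's strand.
LOX2, chr3:16524995-16525244, plus strand: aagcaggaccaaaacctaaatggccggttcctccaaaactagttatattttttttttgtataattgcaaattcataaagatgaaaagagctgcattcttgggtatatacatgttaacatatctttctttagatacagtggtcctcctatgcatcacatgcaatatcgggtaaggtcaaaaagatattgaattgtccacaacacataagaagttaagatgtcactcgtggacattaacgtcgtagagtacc
AOS, chr5:17099596-17099845, minus strand: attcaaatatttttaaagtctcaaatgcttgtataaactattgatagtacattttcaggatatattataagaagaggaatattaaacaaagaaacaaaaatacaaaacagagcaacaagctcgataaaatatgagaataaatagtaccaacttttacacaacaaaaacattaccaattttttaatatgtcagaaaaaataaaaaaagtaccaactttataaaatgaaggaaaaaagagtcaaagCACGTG
AOC1, chr3:9403529-9403778, plus strand: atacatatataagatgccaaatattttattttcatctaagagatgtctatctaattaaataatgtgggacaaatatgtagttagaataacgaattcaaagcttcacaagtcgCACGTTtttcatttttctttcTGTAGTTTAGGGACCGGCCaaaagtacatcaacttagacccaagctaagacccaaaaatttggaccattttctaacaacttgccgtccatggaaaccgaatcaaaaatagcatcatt
AOC2, chr3:9406419-9406668, plus strand: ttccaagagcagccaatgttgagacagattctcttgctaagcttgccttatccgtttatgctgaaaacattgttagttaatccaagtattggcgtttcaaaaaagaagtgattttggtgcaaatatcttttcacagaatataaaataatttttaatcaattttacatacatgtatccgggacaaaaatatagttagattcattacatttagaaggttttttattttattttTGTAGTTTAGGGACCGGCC
Capitals mark the G-box in AOS, which ends at the base before the transcript start, and the T/G-box in AOC1, which begins at position -138. The second block of capitals in AOC1 and the block in AOC2 mark a run of 19 bases, TGTAGTTTAGGGACCGGCC, that both hold on the same strand. It begins at -117 in AOC1 and at -19 in AOC2. In AOC2 it ends at the last base of the window, so 19 bases is a minimum length. The genes are neighbours whose coding sequences were 90.3% identical. Among the other 44 pairs of windows the longest shared run was 7 to 11 bases. AOC3, the third gene of the cluster, has no such run in common with them in this window. These matches describe the letters only, and an absent motif says nothing about binding elsewhere.

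OPR3 (AT2G06050, chromosome 2) reduces the precursor in the peroxisome. It had 11.2 FPKM in the wild-type library and 10.2 in wn1, a ratio of 1.09 whose interval of 0.889 to 1.29 includes equal levels. The plastid steps and OPR3 therefore stood in a different order in the libraries. In wild type LOX2 had 8.78 times the FPKM of OPR3, AOS 4.20 times and AOC2 4.20 times. In wn1 OPR3 stood above all of them, at 7.94 times LOX2, 1.53 times AOS and 5.40 times AOC2. Of the 10 genes only AOC4 had a slightly higher value than OPR3 in wn1, at 10.4 FPKM, with overlapping counting intervals.

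The other peroxisomal genes listed differed in both directions, with 5 below 0 and 6 above. All 11 genes for activation and beta-oxidation were measured, none was past 2-fold in either direction, and their median log2 difference was 0.02. Among all 18788 measured genes only 3.65% were lower and 3.67% higher by as much, so nothing is read from that count. KAT2 (AT2G33150), the main thiolase, had 150 FPKM in the wild-type library and 152 in wn1. ACX1 (AT4G16760), the acyl-CoA oxidase with a known role in jasmonate synthesis, had 122 and 115, and the multifunctional protein genes MFP2 and AIM1 had 57.2 and 41.2 against 51.2 and 42.9. ACX4 (AT3G51840), a short-chain acyl-CoA oxidase, had 113 and 208 FPKM, the largest difference of the list at 0.87. It was 1.84-fold higher in wn1, with an interval of 1.79 to 1.96. KAT5 (AT5G48880), another thiolase, had 32.6 and 18.9, 1.72-fold lower in wn1 with an interval of 1.54 to 1.87. OPCL1 (AT1G20510), which activates the reduced precursor with coenzyme A, had 6.60 and 4.02 FPKM, 1.64-fold lower in wn1. These enzymes also serve general fatty acid breakdown, which is active in young seedlings. The OPR3 relatives OPR1 and OPR2, reductases outside the peroxisome, had 82.2 and 22.8 FPKM in the wild-type library against 46.6 and 17.6 in wn1.

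**Figure D4:**
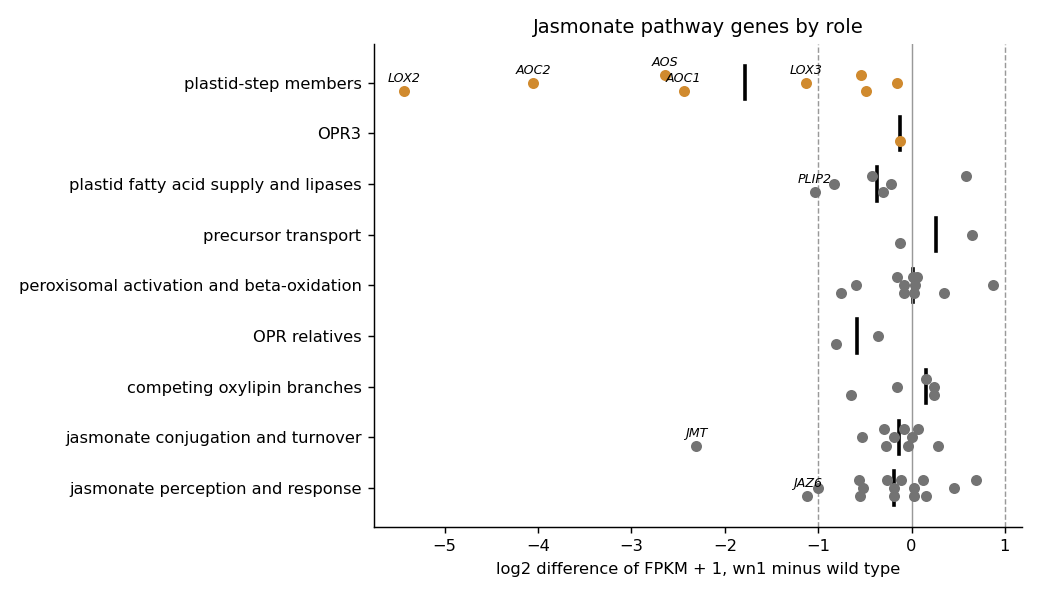
Log2 difference of FPKM + 1 (wn1 minus wild type) for each gene with a mean of at least 1 FPKM, by role in the pathway, with orange points for the synthesis genes, grey for other lists, black lines for medians and dashed lines at 2-fold. The plastid steps reach -5.44 (LOX2), and all 11 genes of the peroxisomal list lie between the dashed lines. Among all measured genes only 3.65% were at least 2-fold lower and 3.67% higher.

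Genes that supply the fatty acid substrate differed in both directions, with 5 of 6 measured genes below 0 and a median of -0.37. FAD7 and FAD8, the plastid desaturases that make linolenic acid, had 225 and 84.3 FPKM in the wild-type library against 182 and 72.3 in wn1. FAD3 (AT2G29980), their counterpart in the endoplasmic reticulum, had 82.3 and 123. PLIP2 (AT1G02660) and PLIP3 (AT3G62590), plastid lipases induced by abscisic acid, had 49.1 and 18.1 FPKM in the wild-type library against 23.5 and 9.76 in wn1. PLIP2 was the 1 of 6 measured genes in this list that was at least 2-fold lower, at -1.03, just past the threshold. The lipase genes DAD1, known from anthers, and DGL were listed at 0 in both libraries. JASSY (AT1G70480), which exports the precursor from the plastid, had 28.0 and 44.4 FPKM, and PXA1 (AT4G39850), the transporter into the peroxisome, had 16.1 and 14.7.

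Among the measured genes downstream, for conjugation and turnover, 7 lay below 0 and 3 above. JAR1 (AT2G46370), which joins jasmonic acid to isoleucine to form the active hormone, had 23.4 FPKM in the wild-type library and 22.8 in wn1. JMT (AT1G19640), the methyltransferase that makes methyl jasmonate, had 4.32 and 0.0781 FPKM. The latter corresponds to about 2 fragments, so the 55.4-fold ratio has a wide interval of 14.5 to 451. Of the 10 measured genes for conjugation and turnover JMT was the only one past 2-fold, and their median was -0.13. Among all measured genes 3.65% were at least 2-fold lower and 3.67% higher, so nothing is read from that count. JOX4 (AT2G38240), an oxygenase gene of this list under the minimum mean, had 0.233 and 0.861 FPKM. It was 3.70-fold higher in wn1 by plain ratio, with an interval of 1.26 to 11.7 from about 5 and 21 fragments. The hydroxylase genes CYP94B1 and CYP94B3, which inactivate the hormone conjugate, had 29.7 and 18.6 FPKM in the wild-type library against 31.2 and 14.9 in wn1. ST2A (AT5G07010), a sulfotransferase of hydroxyjasmonate, had 12.5 and 8.31. CYP94B3 and ST2A were lower in wn1 beyond counting error, with ratio intervals of 1.07 to 1.40 and 1.23 to 1.77.

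Genes of the other oxylipin branches differed in both directions, with 2 of 5 below 0 and 3 above. The 9-lipoxygenase genes LOX1 and LOX5, which act outside the plastid pathway, had 58.3 and 2.48 FPKM in the wild-type library against 69.1 and 3.11 in wn1. HPL1 (AT4G15440), annotated as hydroperoxide lyase 1, had 2.26 and 1.93. DOX1 (AT3G01420), an alpha-dioxygenase of pathogen responses, had 309 and 197, 1.57-fold lower in wn1 with an interval of 1.49 to 1.59. None of these 5 branch genes, DOX2 included, was past 2-fold. For perception and response, 15 of 18 genes were measured and JAZ6, a repressor of jasmonate responses, was the 1 past 2-fold on the log2 scale of FPKM + 1, with 7.05 and 2.72 FPKM. By plain FPKM ratio JAZ3 was 2.12-fold lower, at 16.7 and 7.86 FPKM, and JAZ10 2.28-fold higher, at 0.905 and 2.06 FPKM. MYC2, the central activator, had 25.9 and 28.9, and the marker VSP2 had 6.47 and 5.90. Other genes of this list differed more, and of the 15 measured, 9 lay below 0 and 6 above. JAZ12 had 64.2 and 43.1 FPKM, JAZ1 31.7 and 21.8, and VSP1 9.05 and 5.87. These were lower in wn1 beyond counting error, with ratio intervals of 1.33 to 1.62, 1.27 to 1.61 and 1.19 to 1.96. In the other direction, MYC4 was 1.42-fold higher in wn1, with an interval of 1.22 to 1.70. Over the 51 measured genes of all these lists, synthesis members left out, 3 (5.88%) were at least 2-fold lower on the log2 scale, 0 were higher by as much, and the median was -0.12. Among all 18788 measured genes the shares were 3.65% and 3.67%. Nothing is read from these counts or from those of the single lists.

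**Figure D5:**
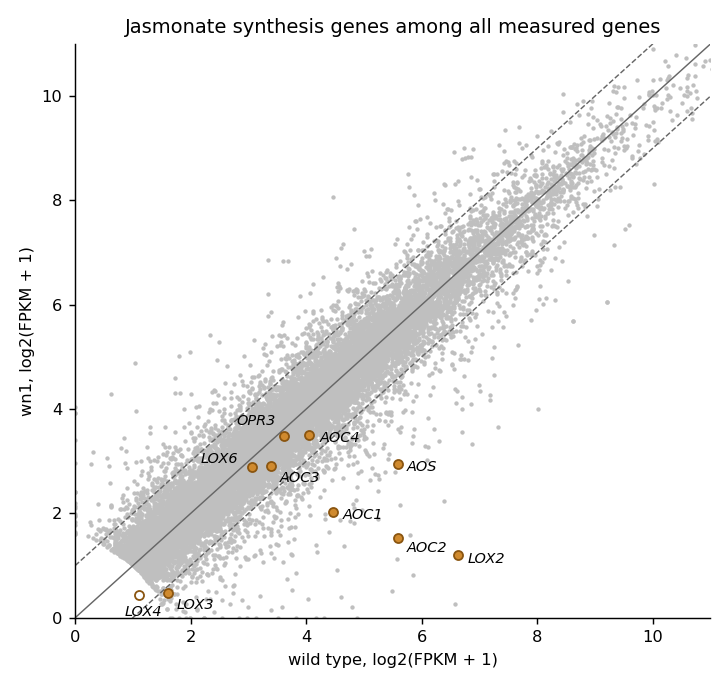
Log2(FPKM + 1) in wild type and wn1 for the 18788 genes with a mean of at least 1 FPKM (grey) and the synthesis genes (orange, LOX4 open because its mean was lower), with the line of equality and dashed lines at 2-fold. Genes beyond 11 on either axis are not drawn. LOX2, AOC2, AOS and AOC1 lie well below the cloud, while LOX6, AOC3, AOC4 and OPR3 lie within it.

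Few genes differed as much as LOX2 in the same direction. The 5 genes with a mean of at least 5 FPKM whose log2 difference over the 2 libraries lay nearest to that of LOX2 were BHLH038, BHLH039, AT3G14431, BGLU28 and BHLH100. BHLH100 (AT2G41240) had 94.2 and 0.209 FPKM, BHLH038 (AT3G56970) 57.0 and 0.770 and BHLH039 (AT3G56980) 43.7 and 0.427. These are basic helix-loop-helix genes known for induction by iron deficiency. The likeness is in a single difference and says nothing of shared control.

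Tissue markers were read beside these values. Green shoot genes were abundant in both libraries, with RBCS1A at 19784 and 13647 FPKM, and 4 of 4 lay within 2-fold. Root markers were present in both libraries although the label names shoot, with CASP1 at 25.1 and 20.6 FPKM and EXPA7 at 35.9 and 22.7. Their summed level was 1639 FPKM in the wild-type library and 2296 in wn1, mostly from PYK10 at 1521 and 2225. The other 5 of the 6 lay below 0, as did 47.1% of all genes, and the median of the list was -0.69. EXPA18 had 51.3 and 26.6 FPKM. IRT1, an iron transporter of the root surface, was the 1 of 6 at least 2-fold lower on the log2 scale, at 3.34 and 0.102 FPKM. FRO2, a root iron reductase, had 2.17 and 0.904 FPKM, a plain ratio of 2.40. Both phloem markers were at least 2-fold lower in wn1, SUC2 at 79.6 and 35.8 FPKM and APL at 10.1 and 3.37, with a sum of 89.7 against 39.2. The 4 xylem wall markers lay within 2-fold, with sums of 89.9 and 69.9, as did the 5 markers of epidermis, trichomes and guard cells, with sums of 39.5 and 42.1. The floral markers AP3, PI and AG were at most 0.371 FPKM, and AG was listed at 0 in wild type. Over all measured genes 3.65% were at least 2-fold lower and 3.67% higher, so nothing is read from marker lists within 2-fold. The part of these markers in the lower levels of the plastid steps was not tested.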

How the data were processed

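Total RNA of shoots was sequenced, with 1 library per genotype. The authors deposited FPKM per gene; the submitters' processing notes name Bowtie and TAIR10. Not given in the sources used here were the counter, strand setting, read length and filters. A company processed the raw data again, per the series design text. Columns were matched by name (WT, WN), and 2 columns of other material were not used.

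Log2((wn1 + 1)/(wild type + 1)) was computed with Python 3.11.15, with a pseudocount of 1, for genes with a mean of at least 1 FPKM, and the step was checked on simulated data. Depth was estimated from genes with 1 transcript of 1000 bases or more and an FPKM up to 0.15. Ratio intervals are exact binomial intervals on rounded fragments, scaled by the depth ratio of 1.22 read from 807 low genes. The members and the 14 other gene lists were chosen with earlier results of these data known. Genes named outside the members were the largest differences, the highest levels and all genes past 2-fold in each list. The text names fewer genes than that rule selects. Further genes were chosen after their values were seen. They were FAD8, DAD1, DGL, KAT2, ACX1, MFP2, AIM1, JAR1, HPL1, DOX2, MYC2, MYC4, JAZ1, JAZ5, VSP1, VSP2, CASP1 and EXPA7. Sequences and gene models came from RefSeq TAIR10.1, matched by locus, with no overlapping annotated gene at any member.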

Additional observations from a re-analysis of the deposited data

How the results depend on the processing

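The count of 5 members at least 2-fold lower was 5 with a pseudocount of 0.1, centring on the median of all genes, rescaling without organelle genes, rescaling to 5 reference genes or no filter. It was 4 with a mean of at least 5 FPKM or a threshold of 4-fold. Division by column sums gave 8, OPR3 among them, with 6196 of all genes lower and 90 higher, and moved the median of all genes to -0.81 and that of the peroxisomal list to -0.98. In that scaling the transfer RNA row ATCG00010 alone made up 54.1% of the wn1 sum. Rescaling to the reference genes gave 1015 lower and 433 higher, against 685 and 690 as deposited, with a median of -0.14. At 4-fold, 128 were lower and 72 higher. The median of the plastid steps was -2.43 with a pseudocount of 0.1, -2.44 with a mean of at least 5 FPKM and -1.13 with no filter, the last by adding LOX4. All 10 members kept a difference below 0 in every alternative that changed their values: LOX2 ranged from -6.15 to -5.44, OPR3 from -1.0 to -0.11, LOX6 from -0.98 to -0.15, and AOC3 from -1.31 to -0.48. No paired analysis was possible because each genotype had 1 library, and no library could be left out. Counting error is wide for LOX3 and LOX4 among the members, and wider for JMT and IRT1, each with about 2 fragments in wn1.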
